A study of Mus musculus with 6 samples.

Results

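The potassium channel genes of the mouse were taken as the genes whose symbols start with Kcn, which were 99 of the 31053 genes in the deposited matrices. They comprised 15 inward rectifier genes (Kcnj), 14 two-pore-domain leak channel genes (Kcnk), 8 Kcna, 8 Kcnh, 5 Kcnq, 5 Kcne, 4 Kcnc, 4 Kcnn, 4 Kcnip, 3 Kcnd, 3 Kcnab and 2 Kcnb genes. A further 10 were genes of the modifier subunits Kcnf, Kcng, Kcns and Kcnv, 5 were Kcnma and Kcnmb genes, 3 were Kcnt and Kcnu genes, and 6 fitted none of these. Among the kept nuclei Kcnk16 had no UMI, and 20 members, Kcnk16 among them, had fewer than 100 UMIs. In all, 75 members passed the filter on low counts in at least 1 cell class and 24, including all 5 Kcne genes, were tested in none.

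Single nuclei of the mouse hippocampus, with the dentate gyrus (DG) given in the tissue label, underwent 3' RNA sequencing in droplets. All 6 libraries came from male C57BL/6J mice aged 12 weeks, with the tissue of 5 mice pooled per library. HDACi-CFC (2 libraries) and HDACi-Context (1 library) mice received CI-994, an inhibitor of class I histone deacetylases, by intraperitoneal injection at 30 mg/kg, and Veh-CFC (2 libraries) and Veh-Context (1 library) mice received vehicle, each 1 h before the exposure. CFC stands for contextual fear conditioning with 2 foot shocks of 0.2 mA, Context mice saw the chamber without a shock, and all mice were killed 1 h after the exposure. Actinomycin D, which blocks transcription, was used while nuclei of every library were isolated. For the library labelled Veh-Context the title and the treatment label say vehicle and the description says HDACi.

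Potassium channels set the resting potential of neurons, repolarize the action potential and limit repetitive firing. The voltage-gated pore subunits Kcna to Kcnd, Kcnh and Kcnq differ in how fast they open and inactivate, and cytoplasmic or membrane partners such as Kcnip and Kcnab change their gating or traffic. Kcnj channels pass current more easily inward, Kcnk channels carry leak current, and Kcnma1 and Kcnn channels open on calcium. In the hippocampus the A-type current of dendrites is carried largely by Kcnd subunits with Kcnip partners, the M-current by Kcnq subunits, and the slow postsynaptic inhibition through G proteins by Kcnj3 and its relatives. Astrocytes and oligodendrocytes buffer extracellular potassium, for which Kcnj10 is the best known channel.

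The libraries held between 24508202 and 45570814 UMIs, and 26839 nuclei were kept. Their median depth was 5368 and 6348 UMIs per nucleus in HDACi-CFC, and 5955 and 6808 in Veh-CFC. Clustering without the Kcn genes gave 28 clusters, of which 20 could be named from marker genes. The ending "-like" says that a name rests on marker genes alone. DG granule-like nuclei, which join clusters 0 and 1, numbered 969 and 1332 in HDACi-CFC, and 822 and 1198 in Veh-CFC. At most 11 cell barcodes were shared by any pair of libraries. Cluster 13, with Ttr and Hbb-bs among its leading genes, had a median UMI count of 0.168 of its library's median and stayed unnamed. Its summed Kcnip4 level of 7338 CPM (UMIs per 1000000 UMIs of the class) in Veh-CFC showed that RNA of a neuronal channel gene was present in droplets with few UMIs.

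Promoters of 4 members called in DG granule-like nuclei are printed here as examples: Kcnj3, Kcnd3 and Kcnip2 were higher with the inhibitor and Kcnn3 was lower. They are not the members with the lowest adjusted p, since Kcnk1 and Kcnq3, which came before Kcnd3 and Kcnip2, are not printed. The sequences are the 250 bases before the annotated start, from RefSeq on GRCm38.p6, written 5' to 3' on the gene's strand. Capitals mark the GC box letters GGGCGG or CCGCCC. The windows are chr2:55435720-55435969 on the plus strand for Kcnj3, chr3:105451640-105451889 on the plus strand for Kcnd3, chr19:45816064-45816313 on the minus strand for Kcnip2 and chr3:89519914-89520163 on the plus strand for Kcnn3.
Kcnj3: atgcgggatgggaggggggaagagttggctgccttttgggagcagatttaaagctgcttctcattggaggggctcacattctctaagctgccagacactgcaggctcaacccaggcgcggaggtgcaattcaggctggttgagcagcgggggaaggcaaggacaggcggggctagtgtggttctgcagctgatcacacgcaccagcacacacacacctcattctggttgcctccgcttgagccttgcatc
Kcnd3: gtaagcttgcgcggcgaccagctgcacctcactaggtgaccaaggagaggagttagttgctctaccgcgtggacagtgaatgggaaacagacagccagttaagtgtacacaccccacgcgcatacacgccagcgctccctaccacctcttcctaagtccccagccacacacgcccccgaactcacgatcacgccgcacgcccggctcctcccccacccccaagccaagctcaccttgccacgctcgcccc
Kcnip2: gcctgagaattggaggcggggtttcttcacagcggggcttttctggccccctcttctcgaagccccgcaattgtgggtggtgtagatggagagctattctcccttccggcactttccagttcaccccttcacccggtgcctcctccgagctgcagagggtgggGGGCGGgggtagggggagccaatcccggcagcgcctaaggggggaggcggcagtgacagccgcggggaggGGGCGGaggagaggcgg
Kcnn3: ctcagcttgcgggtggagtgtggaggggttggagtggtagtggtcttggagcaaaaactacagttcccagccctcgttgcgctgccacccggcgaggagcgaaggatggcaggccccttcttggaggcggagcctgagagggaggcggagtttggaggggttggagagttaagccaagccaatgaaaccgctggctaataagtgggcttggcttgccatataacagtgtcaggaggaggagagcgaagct
Of these windows the one of Kcnip2 held 2 GC boxes and the other 3 held none.

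Promoter windows were found for 72 of the 99 members. A GC box, searched as GGGCGG or CCGCCC, stood in 35 of these 72 (48.6%), against 33.0% of all 27025 promoter windows. Among members with a window, it stood in 12 of the 29 that were higher with the inhibitor in DG granule-like nuclei and in 13 of the 20 that were tested there and not higher. The letters TGACG or CGTCA, the core of the cyclic AMP response element, stood in 16 (22.2%) of the members' windows and 17.8% of all. TATAAA or TTTATA was in 2 (2.78%), against 12.98% of all, and the palindrome CACGTG in 4 (5.56%), against 6.04% of all. The median GC content of the windows was 58.8% over the members and 52.0% over all promoters. It was 61.6% for the members that were higher in DG granule-like nuclei and 59.4% for those tested and not higher. These matches are letters in a window and say nothing of binding.

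In vehicle-treated mice after conditioning, the members marked cell classes. Levels in this and the next 3 paragraphs are CPM in the 2 Veh-CFC libraries, compared for 1 gene across 16 classes. Kcnmb2, an auxiliary subunit that inactivates the calcium-activated channel Kcnma1, was at 1122 and 1014 CPM in interneuron-like nuclei, 19.4-fold above its mean over the other classes. Kcns3, a silent modifier subunit, stood at 87.2 and 89.4 CPM there, 16.0-fold above the others. Kcnc2, a fast delayed rectifier subunit of fast-spiking cells, was at 1532 and 1409 CPM, against 974 and 1175 CPM in Cajal-Retzius-like nuclei, the next class. Both libraries gave interneuron-like nuclei as the highest class for each of these 3 genes.

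**Figure D1:**
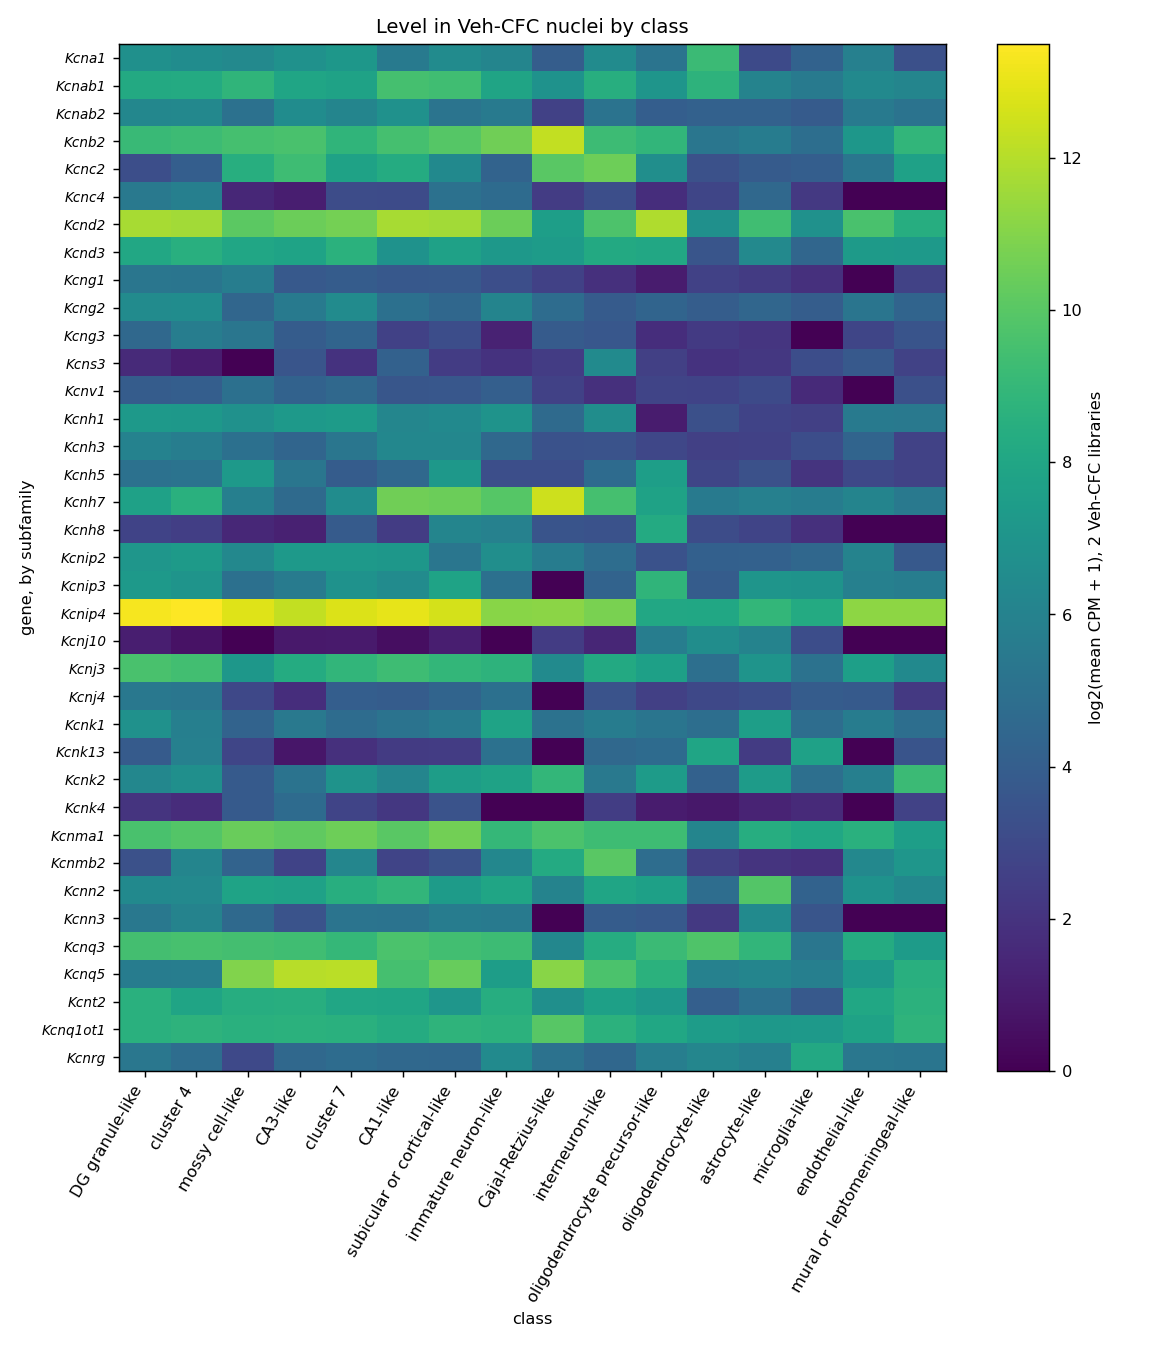
Levels of the named members across cell classes in vehicle-treated, conditioned mice: colour gives the mean over the 2 Veh-CFC libraries on a log scale for each gene (rows) and class (columns). Kcnmb2 and Kcns3 stand out in interneuron-like nuclei, Kcnh8 in oligodendrocyte precursor-like nuclei and Kcna1 and Kcnj10 in oligodendrocyte-like nuclei.

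Pyramidal and Cajal-Retzius-like nuclei had other leading members. Kcnq5, a subunit of the M-current, was at 4444 and 4126 CPM in CA3-like nuclei and at 4556 and 4223 CPM in the unnamed cluster 7. These ranges overlap. Kcnh7, an ether-a-go-go-related channel, was at 5855 and 5619 CPM in Cajal-Retzius-like nuclei, against 1418 and 1618 CPM in CA1-like nuclei, the next class. Kcnb2, a slow delayed rectifier, was at 4487 and 5146 CPM in Cajal-Retzius-like nuclei. Kcnab1, a cytoplasmic subunit of Kcna channels, was highest in CA1-like nuclei at 707 and 773 CPM, and its values in subicular or cortical-like nuclei (644 and 691 CPM) lay just below.

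Glial classes had leading members too, some of them shared between classes. Kcnh8 was at 293 and 325 CPM in oligodendrocyte precursor-like nuclei, 23.6-fold above the mean of the other classes. Kcnip3, a calcium sensor that binds Kcnd channels and also acts as the repressor DREAM, was at 384 and 514 CPM in the same class. Kcna1, a juxtaparanodal channel subunit in myelinated axons, was at 560 and 601 CPM in oligodendrocyte-like nuclei, 8.97-fold above the other classes. Kcnj10, the inward rectifier of potassium buffering, was at 101 and 93.4 CPM in oligodendrocyte-like nuclei, and at 57.2 and 72.9 CPM in astrocyte-like nuclei. In oligodendrocyte precursor-like nuclei it was at 57.5 and 44.6 CPM, a range that overlaps that of astrocyte-like nuclei. Its level was 8.0 CPM in microglia-like nuclei. Kcnk13, a two-pore channel, was at 252 and 230 CPM in oligodendrocyte-like nuclei and 231 and 191 CPM in microglia-like nuclei, and these ranges overlap. Kcnn2, a calcium-activated channel of small conductance, was at 914 and 971 CPM in astrocyte-like nuclei, against 485 and 460 CPM in CA1-like nuclei.

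DG granule-like nuclei were the highest class for 5 of the 72 members with at least 100 UMIs in Veh-CFC, Kcnj3 among them. Kcnj3, a pore subunit of the G protein-gated inward rectifier, was at 792 and 812 CPM there, against 690 CPM on average in cluster 4 and 624 CPM in CA1-like nuclei. Its level was 33.5 CPM in microglia-like and 30.0 CPM in oligodendrocyte-like nuclei. The member most like it over the 16 classes was Kcnd2 (Pearson's r of log2 CPM 0.916), and the genes share the libraries and the depth of each class. For Kcnk1 the closest was Kcnc4 (0.578), and for Kcnq3 they were Kcnab1 (0.721) and Kcnu1 (0.701). Kcnip4, whose gene spans 1135.41 kb, gave 48.0% of all member UMIs in DG granule-like nuclei. All members together summed to 21431 and 21436 CPM there, 21089 and 21781 CPM in CA1-like nuclei and 2620 and 2332 CPM in microglia-like nuclei.

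In DG granule-like nuclei of conditioned mice, 38 of the 71 members tested were higher with the inhibitor and 6 were lower (edgeR quasi-likelihood test, adjusted p below 0.05). Of the members tested 53.5% were thus called higher, against 23.4% of all 14835 genes tested, while 26.3% of all genes were called lower. The median log2 fold change was 0.39 over the 71 members and 0.004 over all genes. These values rest on TMM scaling, which sets the typical gene to no change. Under scaling to library size, the median of all genes fell by 0.36, the members' median was 0.03, and 22 members were called higher and 16 lower. Scaled per nucleus, the shift was -0.45 and the split was 13 higher and 11 lower. The shares of all genes hold for TMM scaling only. Counts under the other scalings, here and below, thus have no such background beside them. Levels per gene from here on are TMM-scaled CPM, so they are not the values of the baseline paragraphs. With 2 pools of mice per group, the p-values measure the spread between these libraries.

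Inward rectifiers held the member with the lowest adjusted p. Kcnj3 (ENSMUSG00000026824, chromosome 2, 55435970 to 55598145, plus strand) was at 1773 and 1866 CPM in HDACi-CFC, against 703 and 717 CPM in Veh-CFC. Both HDACi libraries lay far above both vehicle libraries, and the log2 fold change was 1.36 (SE 0.057, edgeR adjusted p = 3.65e-16), a 2.56-fold higher level. Its partner subunits Kcnj6 (log2 fold change 0.66) and Kcnj9 (0.67) were called higher too, with Kcnj4 (0.70) and Kcnj2 (1.52), both classical strong inward rectifiers. Of the 15 Kcnj genes 9 were tested, 5 were higher and 1, the low-count Kcnj12 (-1.32), was lower. Library-size scaling gave 5 higher and 2 lower, and per-nucleus scaling 2 and 2 with a median of 0.21, against 0.66 under TMM. Kcnj3 kept its call under both (1.00 and 0.91).

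Among leak channels, Kcnk1 (ENSMUSG00000033998, chromosome 8, 125995170 to 126030685, plus strand) was at 272 and 255 CPM in HDACi-CFC, against 106 and 95.9 CPM in Veh-CFC. The groups were well apart, with a log2 fold change of 1.38 (SE 0.081, edgeR adjusted p = 1.19e-13). Kcnk13 was at 36.0 and 39.5 CPM in HDACi-CFC DG granule-like nuclei, against 10.3 and 13.8 CPM in Veh-CFC (log2 fold change 1.62, SE 0.153, edgeR adjusted p = 1.37e-09). Oligodendrocyte-like and microglia-like nuclei, but not astrocyte-like nuclei, carried it at a far higher level at baseline. In the same DG granule-like nuclei the 8 oligodendrocyte markers summed to 340 and 374 CPM in HDACi-CFC, against 418 and 437 CPM in Veh-CFC. The 8 microglia markers summed to 104 and 115 CPM in HDACi-CFC, against 127 and 125 CPM in Veh-CFC, and no marker of either list was at 0. The part of glial RNA in the Kcnk13 values was not tested. Kcnk9 (0.41) and Kcnk10 (0.26), acid-sensitive and mechanosensitive leak channels, complete the 4 higher of 9 tested, and the low-count Kcnk3 (-1.45) was lower. Under library-size and per-nucleus scaling 2 Kcnk genes were called higher and 1 lower.

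**Figure D2:**
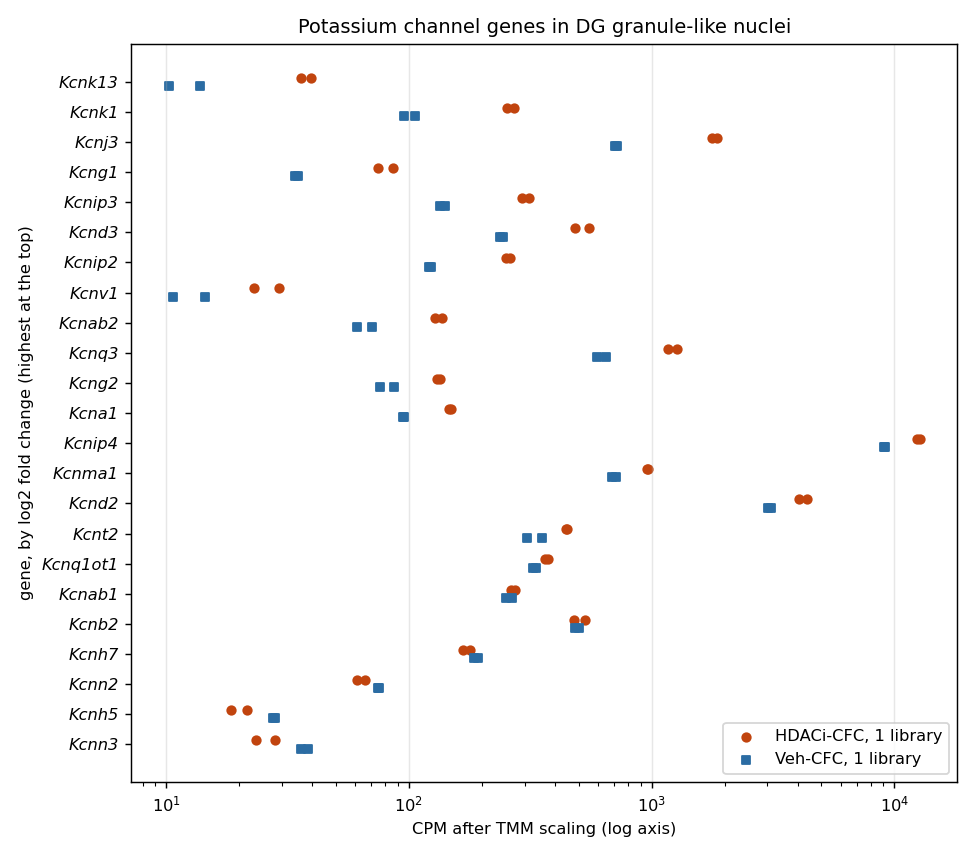
TMM-scaled CPM per library of the named members in DG granule-like nuclei, on a horizontal log axis. Each mark is 1 library, with the 2 of HDACi-CFC (circles) drawn just over the 2 of Veh-CFC (squares) in each gene's row; for Kcnj3, Kcnk1 and Kcnd3 both HDACi marks lie at higher levels than both vehicle marks, and for Kcnn3 both lie at lower levels.

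Of the A-type pore subunits 2 of 3 tested Kcnd genes were called higher, and of their calcium sensors 3 of 4 Kcnip genes. Kcnd3 (ENSMUSG00000040896, chromosome 3, 105452330 to 105674002, plus strand), a pore subunit, was at 553 and 484 CPM in HDACi-CFC, against 238 and 245 CPM in Veh-CFC (log2 fold change 1.10, adjusted p = 1.38e-12). Kcnd2, the main pore subunit of pyramidal and granule cells, was at 4028 and 4355 CPM in HDACi-CFC, against 3107 and 3024 CPM in Veh-CFC (0.45, adjusted p = 1.66e-08). Both genes had every HDACi library above every vehicle library. The Kcnd median of 0.45 was 0.09 under library-size scaling and 0.01 per nucleus, and Kcnd2 lost its call under both, while Kcnd3 kept its call (0.74 and 0.64). Kcnip2 (chromosome 19, 45791839 to 45816061, minus strand) was at 262 and 251 CPM in HDACi-CFC, against 123 and 121 CPM in Veh-CFC (1.07, adjusted p = 5.47e-12). Kcnip3 (chromosome 2, 127456498 to 127522094, minus strand) was at 311 and 292 CPM in HDACi-CFC, against 134 and 141 CPM in Veh-CFC (1.13, adjusted p = 1.79e-12). Kcnip4 was at 12410 and 12739 CPM in HDACi-CFC, against 9052 and 9177 CPM in Veh-CFC (0.46, adjusted p = 1.15e-10). The value of Kcnip4 was 0.10 under library-size scaling, and per nucleus it was 0.02 and no longer called (adjusted p = 0.957). The Kcnip median of 0.77 was 0.41 under library-size scaling and 0.32 per nucleus. Kcnd3os, an antisense gene that overlaps Kcnd3, had a log2 fold change of 1.47, and since strand counting is not stated its reads cannot be told apart from those of Kcnd3.

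Subunits of the M-current and of the delayed rectifiers differed in size of change. Kcnq3 (ENSMUSG00000056258, chromosome 15, 65986387 to 66286642, minus strand) was at 1268 and 1172 CPM in HDACi-CFC, against 646 and 598 CPM in Veh-CFC (log2 fold change 0.97, adjusted p = 6.80e-13). Kcnq5 (0.32), which forms channels with it, was also called higher. The Kcnq median of 0.37 was 0.01 under library-size scaling and -0.08 per nucleus. Kcnb2, a delayed rectifier, was not called (0.04, adjusted p = 0.671). Kcna1 was at 150 and 146 CPM in HDACi-CFC, against 95.1 and 95.9 CPM in Veh-CFC (0.63), and Kcna4 had 0.86, with 3 of 4 tested Kcna genes called higher. Of these 4 genes 2 were called higher under library-size scaling and 0 per nucleus, where the Kcna median was 0.06 and Kcna1 had 0.18 (adjusted p = 0.464).

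Silent modifier subunits, which form channels only with a Kcnb partner, were called higher in 5 of 9 tested cases. Kcng1 (chromosome 2, 168260117 to 168281736, minus strand) was at 86.0 and 74.6 CPM in HDACi-CFC, against 35.1 and 34.0 CPM in Veh-CFC (log2 fold change 1.21, adjusted p = 3.83e-10). Kcnv1 was at 22.9 and 29.1 CPM in HDACi-CFC, against 10.6 and 14.4 CPM in Veh-CFC (1.04), and Kcng2 had 0.71. None of the 3 had overlapping groups. Under library-size scaling 4 of the 9 were called higher, and per nucleus 2 of 9 with a median of 0.09, against 0.54 under TMM. Kcng2 lost its call per nucleus (0.26, adjusted p = 0.266). Of the cytoplasmic Kcnab subunits, Kcnab2 was at 137 and 128 CPM in HDACi-CFC, against 70.4 and 61.3 CPM in Veh-CFC (1.01, adjusted p = 6.48e-10). Kcnab1 was not called (0.06, adjusted p = 0.543), and its sign turned under library-size (-0.30) and per-nucleus scaling (-0.39).

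Calcium-activated channels changed in both directions. Kcnma1, the large-conductance pore subunit, was at 959 and 968 CPM in HDACi-CFC, against 713 and 688 CPM in Veh-CFC (0.46, a call lost under both other scalings), and its subunits Kcnmb4 (0.28) and the low-count Kcnmb3 (1.75) were called higher. Kcnn3 (ENSMUSG00000000794, chromosome 3, 89520164 to 89675132, plus strand), of small conductance, was at 23.5 and 28.1 CPM in HDACi-CFC, against 38.5 and 35.9 CPM in Veh-CFC. Every HDACi library lay below every vehicle library, with a log2 fold change of -0.50 (edgeR adjusted p = 0.00208) that kept its call under all alternatives tried. Kcnn2 was at 61.4 and 65.8 CPM in HDACi-CFC, against 74.8 and 75.6 CPM in Veh-CFC (-0.24, adjusted p = 0.0400). Its call was lost without Veh-CFC replicate 1 (-0.24), Veh-CFC replicate 2 (-0.22) or HDACi-CFC replicate 1 (-0.19). The Kcnn2 call was also lost in DESeq2, with doublets kept, with a gate on markers per nucleus, in cluster 0 alone and in cluster 1 alone. The low-count Kcnn1, of the same subfamily, was called higher (1.08). The sodium-activated Kcnt2 was higher (0.43), but its call was lost under library-size scaling (0.07, edgeR adjusted p = 0.4) and per nucleus (-0.01).

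No ether-a-go-go (Kcnh) gene was called higher in DG granule-like nuclei under any of the 3 scalings. Of 6 tested, Kcnh5 and Kcnh4 were called lower. Kcnh5 was at 21.5 and 18.5 CPM in HDACi-CFC, against 27.5 and 28.2 CPM in Veh-CFC (-0.50, adjusted p = 0.00532). It lost its call without Veh-CFC replicate 2 (-0.47) or HDACi-CFC replicate 2 (-0.37). The Kcnh5 call was also lost in DESeq2, with a gate on markers per nucleus and in cluster 1 alone. Kcnh4 had few counts (-1.23), and Kcnh7 was not called (-0.12, adjusted p = 0.186). Kcnh7 was called lower under library-size scaling (-0.48, adjusted p = 5.08e-06) and per nucleus (-0.57, adjusted p = 0.00863), where 4 of the 6 Kcnh genes were called lower in each case. The Kcnh median was -0.07, -0.43 under library-size scaling and -0.51 per nucleus. Of the remaining members, the imprinted antisense RNA Kcnq1ot1 (chromosome 7, 143203458 to 143296549), which lies inside Kcnq1, was at 364 and 373 CPM in HDACi-CFC, against 334 and 325 CPM in Veh-CFC (0.16, adjusted p = 0.0497). Its call was lost without Veh-CFC replicate 1, Veh-CFC replicate 2 or HDACi-CFC replicate 2, and its sign turned under library-size (-0.20) and per-nucleus scaling (-0.28). The Kcnq1ot1 call was also lost in DESeq2, with no low-count filter, with a gate on markers per nucleus, with cluster 4 added and in cluster 1 alone.

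**Figure D3:**
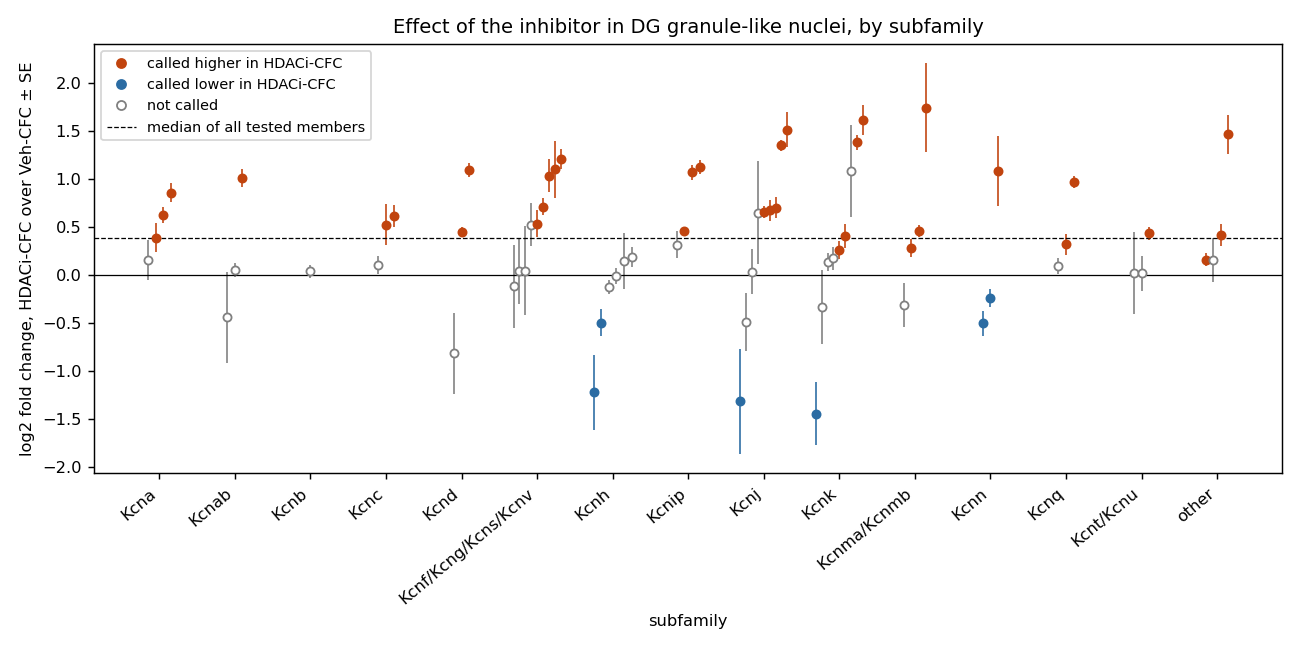
Log2 fold change (HDACi-CFC over Veh-CFC, TMM scaling) of the tested members reported here in DG granule-like nuclei, by subfamily. Each point is 1 gene with its SE as a bar, filled where called, and the dashed line is the median of all tested members; all tested Kcnip genes lie above 0, and the Kcnh and Kcnn subfamilies have medians of -0.07 and -0.24.

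Gene length was set beside these values, since the members include very long genes. Over the 71 members the Spearman correlation of length with log2 fold change was -0.126, and over 14824 genes it was 0.099; genes share the libraries and are not replicates. The 48 members under 100 kb had a median of 0.42, against -0.04 for all 12211 such genes. For the 23 members of at least 100 kb it was 0.26, against 0.21 for all 2613 such genes.

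The same comparison was made in 12 further classes. In CA1-like nuclei 31 of 68 members were higher and 6 lower (backgrounds 18.4% and 20.3% of all genes). In CA3-like nuclei 26 of 52 were higher and 0 lower (14% and 12.2%), and in interneuron-like nuclei 30 of 57 were higher and 0 lower (17% and 13.3%). Cluster 4, whose best list was the DG granule list without a marker among its leading genes, had 32 higher and 1 lower of 54 (20.4% and 17.5%), and cluster 7 had 24 and 1 of 58 (14.4% and 11.5%). Subicular or cortical-like nuclei had 18 and 0 of 49 (8.29% and 4.34%), immature neuron-like nuclei 8 and 1 of 32 (7.83% and 3.81%) and Cajal-Retzius-like nuclei 6 and 1 of 21 (11% and 6.28%). The split again moved with the scaling. These backgrounds hold for TMM scaling of the 4 CFC libraries, and the counts that follow have none beside them. Under library size it was 16 higher and 13 lower in CA1-like nuclei, 13 and 5 in CA3-like, 16 and 3 in interneuron-like, 17 and 6 in cluster 4 and 13 and 4 in cluster 7. When Veh-CFC replicate 2 was left out, the calls numbered 23 in CA1-like, 14 in CA3-like, 16 in cluster 7, 7 in subicular or cortical-like and 3 in Cajal-Retzius-like nuclei. Without Veh-CFC replicate 1 they numbered 15 in cluster 7, 11 in subicular or cortical-like and 0 in Cajal-Retzius-like nuclei, and without HDACi-CFC replicate 1 they numbered 16 in CA3-like and 4 in immature neuron-like nuclei.

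Among glia, oligodendrocyte-like nuclei had 21 members higher and 0 lower of 39 (backgrounds 20.6% and 17.9%) and microglia-like nuclei 14 and 3 of 25 (20.8% and 18.5%). Astrocyte-like nuclei had 6 higher and 0 lower of 36 (16.3% and 12.4%), a share of 16.7% that is close to the background. Oligodendrocyte precursor-like nuclei had 9 higher and 6 lower of 36 (17.2% and 13.2%). Under library-size scaling the splits were 10 and 1 in oligodendrocyte-like, 6 and 6 in astrocyte-like and 5 and 10 in oligodendrocyte precursor-like nuclei. For these and the following counts the share of all genes is not given. Under per-nucleus scaling microglia-like nuclei had 3 higher and 3 lower. Microglia-like nuclei had 6 calls with Veh-CFC replicate 2 left out, 10 with HDACi-CFC replicate 1 left out and 11 with the other HDACi-CFC library left out, and in oligodendrocyte precursor-like nuclei 8 without Veh-CFC replicate 1. DESeq2 called 4 higher and 0 lower in microglia-like and 5 higher and 0 lower in oligodendrocyte precursor-like nuclei.

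Over the 13 classes tested, 62 members were called in at least 1, of which 42 were only higher, 6 only lower and 14 higher in some classes and lower in others, under TMM scaling. These are counts of the 75 members tested in at least 1 class. Of all 16496 genes tested in at least 1 class 70.5% were called in at least 1, with 33.8% only higher, 27.1% only lower and 9.61% in both directions. Kcnip4 was called higher in 12 of 13 classes, Kcnj3 and Kcnma1 in 10 of 13, and Kcnip3 in 9 of the 11 where it was tested. Kcnq3 was called higher in 9 of 13, and Kcnk1 and Kcnd3 in 9 of 12 each. Such counts hold under TMM scaling only. In DG granule-like nuclei Kcnip4 lost its call per nucleus, and Kcnma1 lost its call under library-size and per-nucleus scaling. Mean baseline Kcnip4 was 305 CPM in microglia-like and 263 CPM in oligodendrocyte-like nuclei, against 7338 CPM in cluster 13. The part of free RNA in its glial calls was not tested. In CA1-like nuclei Kcnq3 had the highest named value (log2 fold change 1.23), before Kcnk1 (0.98) and Kcnip2 (0.89). In CA3-like nuclei the named genes were Kcng1 (1.44), Kcnq3 (1.14) and Kcnip3 (0.91). Scaled per nucleus, the calls of Kcnk1 and Kcnip2 in CA1-like nuclei and of Kcnip3 in CA3-like nuclei were lost. The classes share the mice and libraries, so their calls are not independent.

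In interneuron-like nuclei the members that led at baseline were higher with the inhibitor. Kcnmb2 was at 2043 and 1883 CPM in HDACi-CFC, against 1015 and 914 CPM in Veh-CFC (log2 fold change 1.02, edgeR adjusted p = 6.98e-07). Kcns3 was at 156 and 175 CPM in HDACi-CFC, against 78.9 and 80.6 CPM in Veh-CFC (1.06, adjusted p = 5.74e-06). In both genes the groups were apart by more than the spread. Kcnc2, which also led there at baseline, was called higher by less (0.47). Kcnip1 was at 866 and 1012 CPM in HDACi-CFC, against 378 and 470 CPM in Veh-CFC (1.15). It was not a leader, with a mean baseline level without TMM of 470 CPM here and 508 CPM in oligodendrocyte precursor-like nuclei. Kcnmb2 was called lower in 3 other classes. In cluster 4 it was at 29.4 and 27.7 CPM in HDACi-CFC, against 66.6 and 55.2 CPM in Veh-CFC (-1.08, adjusted p = 5.65e-05), though this value was 0.08 when doublets were kept. In Cajal-Retzius-like nuclei it was at 50.8 and 107 CPM in HDACi-CFC, against 407 and 403 CPM in Veh-CFC (-2.28, edgeR adjusted p = 0.00771). That call was lost without Veh-CFC replicate 1 (-2.18) or Veh-CFC replicate 2 (-2.22), and with a gate on markers per nucleus. In immature neuron-like nuclei it was at 27.6 and 13.04 CPM in HDACi-CFC, against 86.1 and 72.5 CPM in Veh-CFC (-2.09, edgeR adjusted p = 0.0144). This call was lost without Veh-CFC replicate 2, HDACi-CFC replicate 1 or HDACi-CFC replicate 2. It was also lost in DESeq2 and with a gate on markers per nucleus.

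In subicular or cortical-like nuclei Kcnh5, an ether-a-go-go channel that was lower in DG granule-like nuclei, was at 368 and 400.4 CPM in HDACi-CFC, against 116 and 153 CPM in Veh-CFC (log2 fold change 1.52, edgeR adjusted p = 0.000109). The groups were far apart, but the difference from DG granule-like nuclei was not tested. The class was small, with 32 and 84 nuclei in HDACi-CFC, against 104 and 86 in Veh-CFC. Kcnj4 was at 37.8 and 57.4 CPM in HDACi-CFC, against 19.95 and 15.8 CPM in Veh-CFC (1.53, edgeR adjusted p = 0.00823). This call was lost without Veh-CFC replicate 2 or HDACi-CFC replicate 2, in DESeq2 and per nucleus (1.12, edgeR adjusted p = 0.0792). In immature neuron-like nuclei Kcnd3 was at 510 and 470 CPM in HDACi-CFC, against 121 and 192 CPM in Veh-CFC (1.57, adjusted p = 0.00166). In Cajal-Retzius-like nuclei the calcium sensor Kcnip1 was at 1600 and 1191 CPM in HDACi-CFC, against 380 and 537 CPM in Veh-CFC (1.59, adjusted p = 0.00616), a call lost without Veh-CFC replicate 1 (adjusted p = 0.0563). In cluster 4 Kcnk1 was at 159 and 129 CPM in HDACi-CFC, against 53.8 and 43.6 CPM in Veh-CFC (1.58, adjusted p = 8.54e-11), and in cluster 7 Kcng1 was at 38.0 and 36.6 CPM in HDACi-CFC, against 10.9 and 15.8 CPM in Veh-CFC (1.46, adjusted p = 0.000152).

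In CA1-like nuclei 2 members named here were called lower. Kcnmb4, a neuronal auxiliary subunit of Kcnma1, was at 18.8 and 20.6 CPM in HDACi-CFC, against 27.5 and 26.4 CPM in Veh-CFC (-0.44, adjusted p = 0.0222). Kcnh3 was at 60.9 and 49.3 CPM in HDACi-CFC, against 66.5 and 67.1 CPM in Veh-CFC (-0.29, adjusted p = 0.0460). Both genes had the HDACi libraries below the vehicle libraries, and DESeq2 called neither (adjusted p of 0.161 for Kcnmb4 and 0.23 for Kcnh3). Without Veh-CFC replicate 2 both calls were lost in edgeR (adjusted p of 0.0665 for Kcnmb4 and 0.145 for Kcnh3). They were also lost without Veh-CFC replicate 1 and with a gate on markers per nucleus. That of Kcnmb4 was lost without HDACi-CFC replicate 1. That of Kcnh3 was lost without HDACi-CFC replicate 2 and in the fit of all 6 libraries.

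**Figure D4:**
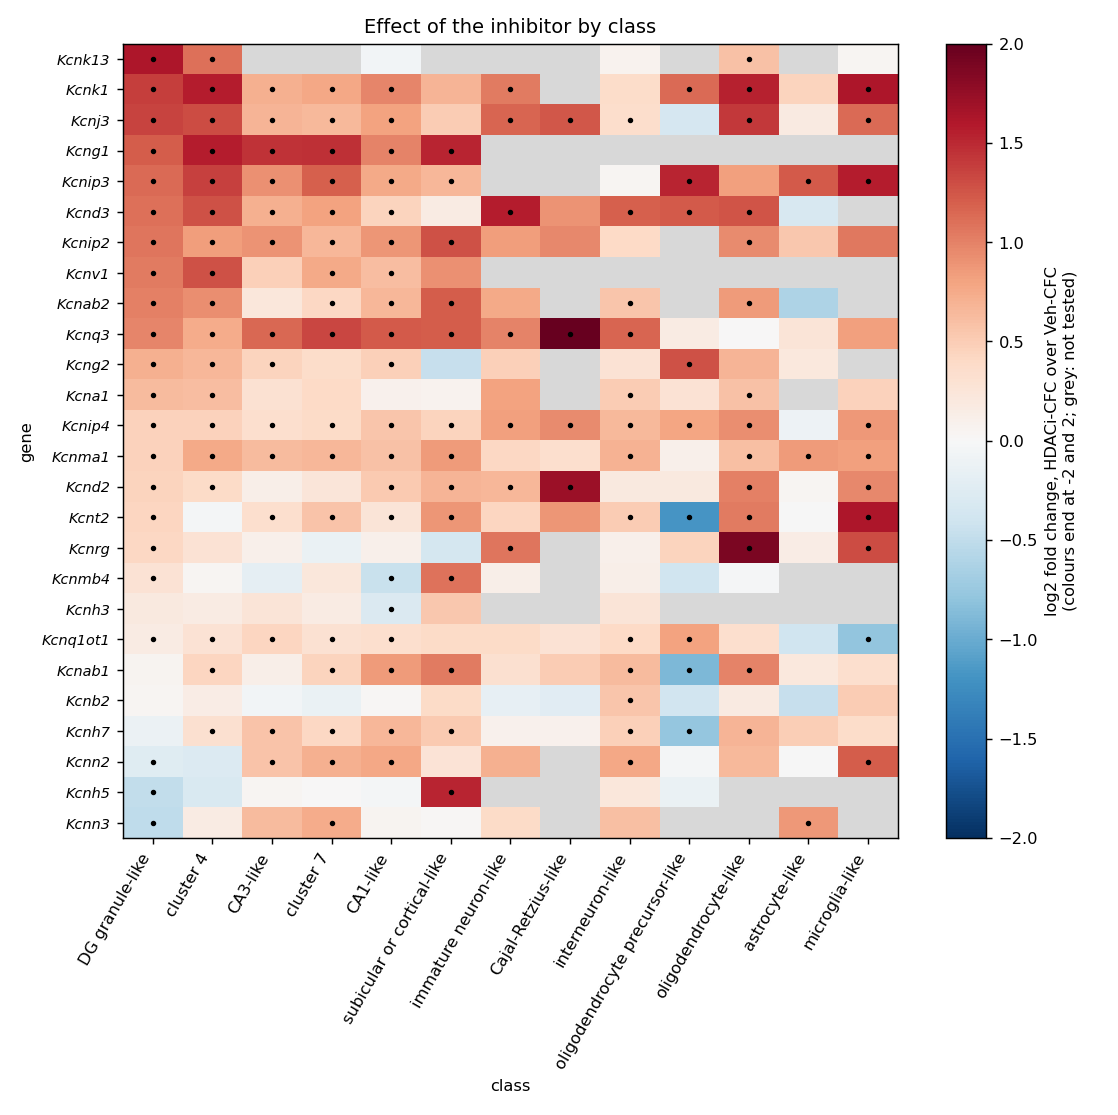
Log2 fold change (HDACi-CFC over Veh-CFC, TMM scaling) of the named members in each of the 13 tested classes. Red is higher and blue lower in HDACi-CFC, dots mark called members and grey fields were not tested; Kcnip4 is called higher in 12 classes.

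In oligodendrocyte-like nuclei Kcnrg, whose human protein limits the assembly of voltage-gated channels, and Kcnk1 (log2 fold change 1.54) had the highest named values. Kcnrg was at 268 and 221 CPM in HDACi-CFC, against 64.8 and 65.9 CPM in Veh-CFC (log2 fold change 1.88, adjusted p = 2.48e-07). Kcna1 was at 766 and 787 CPM in HDACi-CFC, against 499 and 539 CPM in Veh-CFC (0.58, adjusted p = 0.000264), and Kcnj10 was at 174 and 162 CPM in HDACi-CFC, against 89.8 and 83.9 CPM in Veh-CFC (0.95). Kcnq3, for which this was the class with the highest baseline level, was not called. It was at 817 and 767 CPM in HDACi-CFC, against 820 and 755 CPM in Veh-CFC (0.01, SE 0.097, adjusted p = 0.972). Neuronal members were also higher in these nuclei, such as Kcnip4 at 444 and 451 CPM in HDACi-CFC, against 238 and 232 CPM in Veh-CFC. The 6 CA1 markers in the same nuclei summed to 250 and 219 CPM in HDACi-CFC, against 347 and 340 CPM in Veh-CFC. The 7 DG granule markers were at 4847 and 5126 CPM in HDACi-CFC, against 3401 and 3434 CPM in Veh-CFC. Most of it was Dock10, at 4307 and 4502 CPM in HDACi-CFC, against 2727 and 2690 CPM in Veh-CFC. Dock10 was at 1131 and 1117 CPM in DG granule-like nuclei of Veh-CFC, below its level here. Stxbp6 was lower, at 305 and 369 CPM in HDACi-CFC, against 496 and 565 CPM in Veh-CFC. Prox1 (184 and 181 CPM in HDACi-CFC, against 121 and 120 CPM in Veh-CFC) and Trpc6 were higher, and the groups of the rest overlapped. The part of free RNA in these values was not tested.

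In oligodendrocyte precursor-like nuclei Kcnip3 was at 1313 and 1215 CPM in HDACi-CFC, against 373 and 496 CPM in Veh-CFC (log2 fold change 1.52, adjusted p = 3.52e-13). Kcnab1 at 68.9 and 65.4 CPM in HDACi-CFC, against 136 and 117 CPM in Veh-CFC, and Kcnh7 at 120 and 126 CPM in HDACi-CFC, against 237 and 187 CPM in Veh-CFC, were called lower (-0.90 and -0.77). DESeq2 called no member lower in these nuclei. Kcnh8, which marked the class, was not called (-0.43, adjusted p = 0.0618). In astrocyte-like nuclei Kcnj10 had 1.36 and Kcnn3, lower in DG granule-like nuclei, was at 164 and 133 CPM in HDACi-CFC, against 93.4 and 68.4 CPM in Veh-CFC (0.86, adjusted p = 0.00384). Kcnn2, the channel that marked astrocyte-like nuclei, was not called and its groups overlapped, at 793 and 984 CPM in HDACi-CFC, against 857 and 929 CPM in Veh-CFC (log2 fold change -0.0002, SE 0.131).

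In microglia-like nuclei Kcnrg was higher, at 728 and 667 CPM in HDACi-CFC, against 295 and 268 CPM in Veh-CFC (log2 fold change 1.31, adjusted p = 4.05e-13), and Kcnma1 (0.82). The two-pore gene Kcnk12 was at 26.6 and 15.4 CPM in HDACi-CFC, against 65.5 and 65.0 CPM in Veh-CFC (-1.72, edgeR adjusted p = 0.00126). That call was lost without HDACi-CFC replicate 2 (-1.28) and in DESeq2. Kcnk13, which marked these nuclei, was not called (0.04, adjusted p = 0.894). Summed CA1 markers in microglia-like nuclei were at 366 and 355 CPM in HDACi-CFC, against 629 and 707 CPM in Veh-CFC, and the 8 microglia markers at 18184 and 16633 CPM in HDACi-CFC, against 17588 and 17213 CPM in Veh-CFC.

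Whether the effect of the inhibitor differed between DG granule-like and other nuclei was tested for every gene as an interaction in edgeR. Against CA1-like nuclei 20 of 73 members differed (15.9% of all genes), in 15 of which the effect was more positive in DG granule-like nuclei. Against CA3-like nuclei it was 19 of 65 (13.9%), 15 of them more positive in DG granule-like nuclei. Against interneuron-like nuclei 21 of 71 differed (15.5%), with 9 more positive in DG granule-like nuclei, and against oligodendrocyte-like nuclei 15 of 62 (18.8%), with 4. The shares of all genes count both directions together, so the splits by direction have no background here and nothing is read from them. Without Veh-CFC replicate 1 the counts against CA1-like and CA3-like nuclei were 13 and 10, and without Veh-CFC replicate 2 the count against CA1-like nuclei was 10. Without HDACi-CFC replicate 2 the count was 8 against CA3-like and 7 against oligodendrocyte-like nuclei.

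Kcnj3 rose more in DG granule-like nuclei than in CA1-like nuclei (difference of log2 fold changes 0.62, SE 0.058, adjusted p = 4.94e-11), CA3-like nuclei (0.76) and interneuron-like nuclei (1.12). The difference for Kcnk1 was 0.47, 0.76 and 1.11 against the same classes. Kcnn2 went the other way, with -0.95 against CA1-like nuclei (SE 0.084, adjusted p = 1.18e-11), where it was at 695 and 746 CPM in HDACi-CFC, against 433 and 411 CPM in Veh-CFC. Kcnh7 differed by -0.72 and Kcnab1 by -0.72 against CA1-like nuclei. There Kcnh7 was at 2151 and 2165 CPM in HDACi-CFC, against 1266 and 1447 CPM in Veh-CFC, and Kcnab1 at 1230 and 1157 CPM in HDACi-CFC, against 631 and 691 CPM in Veh-CFC. Kcnd2 and Kcnip4 had differences of -0.01 (SE 0.054) and -0.02 (SE 0.048) against CA1-like nuclei, which were not called.

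Mice that saw only the chamber gave 1 library per treatment, so ratios carry 95% intervals for counting error only and no test. In DG granule-like nuclei Kcnj3 was at 1736 CPM in HDACi-Context and 680 CPM in the library labelled Veh-Context (log2 ratio 1.35, interval 1.31 to 1.39). Kcnk1 was at 256 CPM in HDACi-Context and 91.9 CPM in the library labelled Veh-Context (1.48, interval 1.37 to 1.59). Kcnn3 was at 20.1 CPM in HDACi-Context and 37.7 CPM in the library labelled Veh-Context (-0.90, interval -1.15 to -0.66). These 3 genes thus differed in the same direction as after conditioning. Kcna1 had a log2 ratio of 1.07 after Context and 0.63 after conditioning, and Kcnk13 had 0.98 after Context and 1.62 after conditioning.

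**Figure D5:**
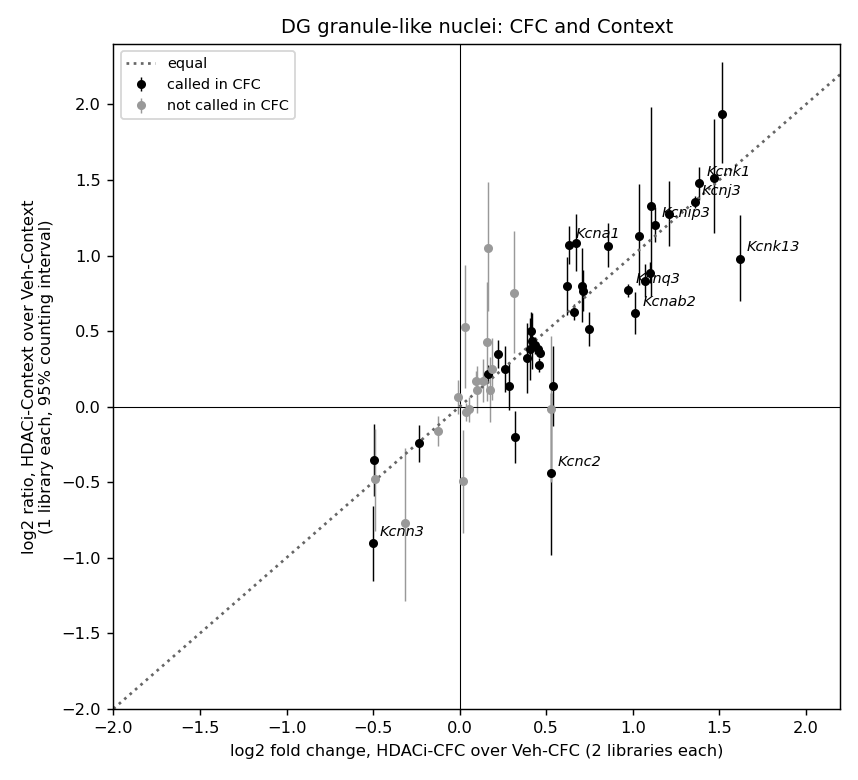
Log2 ratio (HDACi-Context over the library labelled Veh-Context, vertical axis, with 95% counting intervals) against the log2 fold change after conditioning (HDACi-CFC over Veh-CFC, horizontal axis) for members in DG granule-like nuclei. The dotted line marks equal values and black points are called members; of the 39 called members with at least 100 UMIs, 37 have the same sign on both axes.

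Of the members called in DG granule-like nuclei and with at least 100 UMIs in the Context pair, 37 of 39 had the same sign there, against 96.3% of all such genes. The 2 exceptions, chosen after their values were seen, were Kcnq5 (-0.20, interval -0.37 to -0.03) and Kcnc2 (-0.44, interval -0.98 to 0.09). It was 30 of 33 in CA1-like, 17 of 20 in CA3-like and 27 of 28 in interneuron-like nuclei, against 95.8%, 96.4% and 95.4% of all such genes. In oligodendrocyte-like nuclei it was 9 of 13, against 93.5% of all such genes. There Kcnj3, higher after conditioning (1.41), was at 33.5 CPM in HDACi-Context and 60.1 CPM in the library labelled Veh-Context (-0.83, interval -1.43 to -0.28), while Kcnrg kept its size with 266 CPM in HDACi-Context and 74.6 CPM in the library labelled Veh-Context (1.83). Cell Ranger versions differed between the CFC and Context libraries, so levels were not compared across exposures.

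Genes that work with the channels were read from 3 further lists in DG granule-like nuclei. Of all genes tested there 23.4% were called higher and 26.3% lower, and all counts in this paragraph stand beside those shares. Of 18 partner and auxiliary genes 14 were tested, 9 were higher and 2 lower. Dpp6, the membrane partner of Kcnd channels, was at 1608 and 1544 CPM in HDACi-CFC, against 946 and 940 CPM in Veh-CFC (log2 fold change 0.74, adjusted p = 1.72e-11). Ank3, the scaffold that anchors Kcnq channels at the axon initial segment, was at 4629 and 4213 CPM in HDACi-CFC, against 2224 and 2185 CPM in Veh-CFC (1.00, adjusted p = 9.40e-15). Lgi1 (0.61) was higher and its receptor Adam22 (-0.56) was lower. Of the 5 HCN channel genes and regulator 4 were tested, 0 were higher and 2 lower, Hcn2 (-0.96) and the HCN partner Pex5l at 136 and 158 CPM in HDACi-CFC, against 242 and 236 CPM in Veh-CFC (-0.69). Of 10 pump and cotransporter genes 9 were tested, 5 were higher, such as the sodium pump subunit Atp1b1 (0.74), and 1 was lower, Slc12a2 (-1.02).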

How the data were processed

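Deposited matrices held raw counts of UMIs per gene and nucleus, made by the authors with Cell Ranger 3.0.1 (CFC) and 3.0.2 (Context), per the file headers. The build was mm10 and Seurat 4.0.3 was named, per the submitters' processing notes. Counting of introns and strand is not given in the sources used here, and the labels mention 4 pooled libraries, so the Context pair may have been made apart.

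Of 30323 barcodes, those under 500 genes or over 5% mitochondrial UMIs were dropped, as were 927 that Scrublet marked as doublets (expected rate 0.06, scanpy 1.11.5). Variable genes (2000, chosen without Kcn and mitochondrial genes), 30 principal components, 20 neighbours and leidenalg 0.10.2 (resolution 1.0, seed 0) gave the clusters. A cluster was named where the mean log2 ratio of its best marker list reached 0.8, no fewer than 3 markers and a share of 0.5 of the list were seen in 0.1 or more of nuclei, at least 1 marker stood among the 10 leading genes and more than of any other list, and at least 50 nuclei were present; these limits were set after the clusters were seen. UMIs were summed per library and class with at least 30 nuclei per library and fitted with edgeR 4.0.16 under R 4.3.3 (TMM factors, genes kept by filterByExpr, two-sided quasi-likelihood F test, Benjamini-Hochberg adjustment over all genes of the class, called below 0.05). Interactions were fitted for DG granule-like and 1 other class together with library as a block. Levels at baseline are CPM of the class total without TMM. The 4 CFC libraries entered the test, and the Context pair gave ratios with 95% counting intervals. Fits were tested on simulated counts.

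The members and all lists were chosen with earlier results of these data known. Named genes were up to 10 highest and 10 lowest called members whose mean log2 CPM reached 4 and whose groups were apart in DG granule-like nuclei, 3 and 3 in other classes, the most abundant member of each subfamily there, and 3 members per class at baseline with at least 100 UMIs. Members with higher and lower calls given as counts with examples fall outside this rule. Some genes that the rule names are not reported here, and they stay in every count and median. Coordinates are from GENCODE M21 (GRCm38, the assembly of mm10) and promoters from RefSeq on GRCm38.p6.

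Class UMIs per CFC library in DG granule-like nuclei ran from 5010682 to 8825699. Alternatives were library-size and per-nucleus scaling, DESeq2 1.42.0, no filter and a stricter one, each library left out, a replicate block, doublets kept, a gate on markers per nucleus, and all 6 libraries.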

Additional observations from a re-analysis of the deposited data

Results flagged for a closer look

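Among the named members, 47 of 95 tests of whether the effect of the inhibitor differed between DG granule-like and another class passed the threshold in edgeR (adjusted p below 0.05). Of all genes, 13.9% to 18.8% passed in the same tests, but most of these members were named for a high or low change in DG granule-like nuclei, so nothing is read from their share. A member was counted where it was named in DG granule-like nuclei or in the class set against them. The values come from a joint fit of DG granule-like nuclei and the other class. They need not equal the difference between the log2 fold changes fitted in each class apart. A positive value means a more positive change with the inhibitor in DG granule-like nuclei.

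In these members every difference that passed among the counted tests was positive. Kcna1 gave 0.61 against CA1-like nuclei and 0.40 against CA3-like nuclei. For Kcnab2 the difference was 0.44 against CA1-like nuclei, 0.88 against CA3-like nuclei and 0.57 against interneuron-like nuclei. Kcnd3 differed by 0.69 against CA1-like nuclei and 0.47 against CA3-like nuclei. Kcnh3 gave 0.56 against CA1-like nuclei. For Kcnip2 the difference was 0.27 against CA1-like nuclei and 0.79 against interneuron-like nuclei. Kcnip3 differed by 0.43 against CA1-like nuclei and 1.19 against interneuron-like nuclei. Kcnj3 gave 0.62 against CA1-like nuclei, 0.76 against CA3-like nuclei and 1.12 against interneuron-like nuclei. For Kcnk1 the difference was 0.47 against CA1-like nuclei, 0.76 against CA3-like nuclei and 1.11 against interneuron-like nuclei. Kcnk13 differed by 1.75 against CA1-like nuclei, 1.68 against interneuron-like nuclei and 0.90 against oligodendrocyte-like nuclei. Kcnmb4 gave 0.78 against CA1-like nuclei. For Kcnt2 the difference was 0.26 against CA1-like nuclei.

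In these members every difference that passed among the counted tests was negative. Kcnab1 gave -0.72 against CA1-like nuclei, -0.46 against interneuron-like nuclei and -1.07 against oligodendrocyte-like nuclei. For Kcnh7 the difference was -0.72 against CA1-like nuclei, -0.59 against CA3-like nuclei, -0.51 against interneuron-like nuclei and -0.94 against oligodendrocyte-like nuclei. Kcnn2 differed by -0.95 against CA1-like nuclei, -0.70 against CA3-like nuclei, -0.91 against interneuron-like nuclei and -1.03 against oligodendrocyte-like nuclei. Kcnn3 gave -0.49 against CA1-like nuclei, -1.04 against CA3-like nuclei and -0.98 against interneuron-like nuclei. For Kcnb2 the difference was -0.42 against interneuron-like nuclei. Kcnh5 differed by -1.82 against oligodendrocyte-like nuclei. Kcnrg gave -1.60 against oligodendrocyte-like nuclei. Kcnh5 was not tested in oligodendrocyte-like nuclei alone, where it had few counts.

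The sign depended on the other class for 3 members. Kcnq3 gave -0.18 against CA1-like nuclei and 0.83 against oligodendrocyte-like nuclei. For Kcnd2 the difference was 0.42 against CA3-like nuclei, 0.36 against interneuron-like nuclei and -0.67 against oligodendrocyte-like nuclei. Kcnip4 differed by 0.22 against CA3-like nuclei and -0.60 against oligodendrocyte-like nuclei. Members named in other classes alone, which are outside the count, also passed. Against CA1-like nuclei this was Kcnc2 (0.64). Against CA3-like nuclei they were Kcna4 (0.64), Kcnc2 (0.60), Kcnk12 (0.98) and Kcnmb4 (0.56). Against interneuron-like nuclei they were Kcnc1 (-0.44), Kcnip1 (-0.72), Kcnk12 (0.88) and Kcnmb2 (-1.24), and against oligodendrocyte-like nuclei Kcnmb2 (-1.84), which was not tested in that class alone.

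In 3 named and called cases the Context pair had the opposite sign to the change after conditioning, with an interval that leaves out 0, a difference that was not tested. In microglia-like nuclei Kcnt2 had a Context log2 ratio of -1.46, from 6 UMIs in HDACi-Context and 20 in the library labelled Veh-Context, and 1.61 after conditioning. In oligodendrocyte precursor-like nuclei Kcnc1 had 2.19 in Context, from 13 UMIs in HDACi-Context and 2 in the library labelled Veh-Context, and -1.29 after conditioning. In oligodendrocyte-like nuclei Kcnj3 had -0.83 in Context, from 38 UMIs in HDACi-Context and 91 in the library labelled Veh-Context, and 1.41 after conditioning. The conditioning calls of Kcnt2 and Kcnc1 did not hold: both were lost in DESeq2 and with each CFC library left out in turn. All 3 calls were lost in the fit of all 6 libraries, which includes the Context pair. Of the 65 named and called pairs of gene and class, 61 had the same sign in Context, and 1 more was of opposite sign with an interval that includes 0.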

How the results depend on the processing

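The number of members called moved by more than 1.5 times in the cases given here. No share of all genes stands beside these counts, so nothing particular to the members is read from them. Scaled per nucleus, calls numbered 24 in DG granule-like, 9 in CA1-like, 5 in CA3-like, 4 in Cajal-Retzius-like, 17 in cluster 4, 6 in cluster 7, 3 in immature neuron-like, 6 in interneuron-like, 6 in microglia-like, 6 in oligodendrocyte-like and 1 in subicular or cortical-like nuclei. With library-size scaling they were 4 in Cajal-Retzius-like, 12 in astrocyte-like, 19 in interneuron-like, 11 in oligodendrocyte-like and 11 in subicular or cortical-like nuclei. DESeq2 called 29 in DG granule-like, 16 in CA3-like, 13 in cluster 7, 4 in microglia-like, 5 in oligodendrocyte precursor-like, 11 in oligodendrocyte-like and 7 in subicular or cortical-like nuclei. A minimum of 20 UMIs in each group mean, which tests fewer genes, left 2 in Cajal-Retzius-like, 7 in microglia-like, 11 in oligodendrocyte-like and 10 in subicular or cortical-like nuclei. A marker gate per nucleus left 28 in DG granule-like, 2 in Cajal-Retzius-like and 5 in immature neuron-like nuclei. With doublets kept astrocyte-like nuclei had 11, and with all 6 libraries Cajal-Retzius-like nuclei had 4. The highest class in the library labelled Veh-Context was the same for 43 of 72 members, and 58 to 63 with a single Veh-CFC library. Where no value above shows a cause, the cause was not tested.

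With 1 library left out, calls numbered 33 to 42 in DG granule-like, 23 to 33 in CA1-like, 14 to 24 in CA3-like, 26 to 30 in interneuron-like, 27 to 29 in cluster 4, 15 to 26 in cluster 7, 0 to 8 in Cajal-Retzius-like, 4 to 9 in immature neuron-like, 7 to 23 in subicular or cortical-like, 4 to 9 in astrocyte-like, 6 to 12 in microglia-like, 8 to 13 in oligodendrocyte precursor-like and 14 to 19 in oligodendrocyte-like nuclei. Interactions numbered 10 to 19 against CA1-like, 8 to 14 against CA3-like, 16 to 21 against interneuron-like and 7 to 14 against oligodendrocyte-like nuclei. A group with 1 library left is assumed to vary like the other group.

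In DG granule-like nuclei the sign turned for Kcnab1 (-0.30 with library-size and -0.39 with per-nucleus scaling, -0.029 in cluster 0 alone), Kcnb2 (-0.32 and -0.40, -0.035 to 0.114 with 1 library left out, -0.035 being without HDACi-CFC replicate 2, -0.004 in cluster 1 alone), Kcnq1ot1 (-0.20 and -0.28), Kcnt2 (-0.008 per nucleus) and Kcnh7 (0.001 in cluster 1 alone). In cluster 4 Kcnmb2 was 0.081 with doublets kept. The fits of clusters 0 and 1 alone were added after the data were seen. The replicate block gave 46 calls in DG granule-like nuclei and changed no call of a named member; with 2 pairs and no pairing in the labels, the correlation of the pairs was 0.207 there and 0.211 in CA1-like nuclei. Small classes and genes below 100 UMIs limit what could be detected.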
